A study of Mus musculus with 12 samples.

Results

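The genes described here encode the histone methyltransferase DOT1L, its partners of the AF9/ENL and AF10/AF17 families, the AFF scaffold proteins, and the chromatin anchors of MLL. They are Dot1l, Mllt1, Mllt3, Mllt6, Aff1, Aff4, Men1 and Psip1. They were taken by name: a probe set (the group of array probes summarised as 1 value) counted where its annotation carried exactly 1 of these symbols, and the brightest probe set stood for the gene. All 8 genes were found among 19938 genes that had such a probe set, and 7 had a single one. Aff1 had a second, dimmer probe set.

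DOT1L adds methyl groups to lysine 79 of histone H3 on transcribed genes, and AF10 binds it through a stretch called OM-LZ, an octapeptide motif with a leucine zipper. In leukaemias with MLL or CALM-AF10 fusions, DOT1L brought to the HOXA genes keeps them active. ENL and AF9 read acetylated histones and join DOT1L or the AFF proteins, which hold the elongation kinase P-TEFb, while menin and LEDGF tether MLL to chromatin. The comparisons ask whether fusions that use this machinery also altered the RNA of its genes.

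The cells were adult mouse bone marrow (strain labelled C57/BL6/C3H) from donors given 5-fluorouracil, a drug that enriches stem and progenitor cells, 4 days before harvest. They were pre-stimulated for 48 h, transduced with retrovirus over irradiated (40 Gy) GFP+E86 producer cells with cytokines and protamine sulfate, and sorted for GFP, and RNA was taken 96 h after transduction. Each of 4 groups had 3 arrays labelled as biological replicates. One group carried MIG, the empty retroviral vector that serves as the control. Another carried CALM-AF10, and a further one CALM-AF10 ΔOM-LZ, named for lacking OM-LZ. The last carried CALM(400-648)+AF10 (677-758), here called the minimal fusion, which joins those residues of CALM and AF10. All 4 groups, the control included, share the drug, the culture, the vector and the sort, and each fusion was delivered by a virus rather than from its own locus. The sources used here do not say whether replicates came from separate animals, and p-values measure the spread between these arrays.

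Promoter sequences are shown for Dot1l, Mllt3 and Aff4, whose levels were the most closely related from array to array, and for Mllt1, the paralog of Mllt3. They are the RefSeq bases (GRCm38.p6) before the outermost start of each gene, 5′ to 3′ on the strand of the gene, with CG dinucleotides in capitals. Dot1l (chr10:80754953-80755100, + strand) and Mllt1 (chr17:56935510-56935638, − strand) are followed by Mllt3 (chr4:88033408-88033657, − strand) and Aff4 (chr11:53350517-53350639, + strand).
Dot1l: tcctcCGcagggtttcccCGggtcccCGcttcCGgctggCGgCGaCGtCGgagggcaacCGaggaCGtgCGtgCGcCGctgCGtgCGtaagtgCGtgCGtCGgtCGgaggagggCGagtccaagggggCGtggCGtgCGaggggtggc
Mllt1: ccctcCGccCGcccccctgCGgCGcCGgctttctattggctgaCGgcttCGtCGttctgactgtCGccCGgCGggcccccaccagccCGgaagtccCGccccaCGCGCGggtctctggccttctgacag
Mllt3: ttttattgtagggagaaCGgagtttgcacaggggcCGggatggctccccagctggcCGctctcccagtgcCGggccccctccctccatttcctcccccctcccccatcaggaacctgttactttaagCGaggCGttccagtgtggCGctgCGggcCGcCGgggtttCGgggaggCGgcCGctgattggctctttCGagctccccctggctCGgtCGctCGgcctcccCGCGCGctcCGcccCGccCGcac
Aff4: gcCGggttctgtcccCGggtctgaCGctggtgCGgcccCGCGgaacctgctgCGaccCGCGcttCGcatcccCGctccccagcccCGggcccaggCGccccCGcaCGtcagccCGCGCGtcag

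Promoters in the RefSeq table were matched for 7 of the 8 members. In the 250 bases before the first listed start, CG dinucleotides numbered 44 for Dot1l, 40 for Mllt6, 37 for Mllt1, 35 for Aff1, 34 for Aff4, 23 for Mllt3 and 8 for Men1. The Aff1 window (from chr5:103753912, where the gene starts at 103692362) and the Mllt6 window lay wholly inside the outermost bounds of the gene, before a later start. Those of Dot1l, Mllt1 and Aff4 lay partly inside. The median over 32851 promoters was 6, and 0.539% of them held at least as many as Dot1l. Men1 was thus the member nearest the median. A GC box (GGGCGG, either strand, overlapping matches counted) was matched 7 times for Mllt1, 6 times for Mllt6, 2 times each for Dot1l, Mllt3 and Aff1, once for Men1 and not for Aff4, and 32.7% of all promoters held it. The letters TGATTNAT, bound by HOX proteins with PBX, were in none of the windows of these 7 genes, and 2.82% of all promoters held them. The letters TGACAG, bound by MEIS proteins, were in the first windows of Mllt1 and Men1 and in the window of a second Mllt3 start, against 15.9% of all promoters. These matches describe letters and not bound sites.

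The arrays carried the RNA of myeloid progenitors. Mpo, the neutrophil granule peroxidase, had log2 values of 12.10 to 13.37, Spi1, the myeloid transcription factor PU.1, of 11.32 to 12.08, and Cd34, a progenitor surface marker, of 10.84 to 12.43, where array medians were 6.58 to 6.69. Of 6 fibroblast genes, which the producer cells could bring, 4 lay above those medians on every array, namely Col1a1 (6.999 to 7.74), Col1a2 (6.88 to 7.29), Col3a1 (6.70 to 7.28) and Fn1 (7.64 to 10.67), a gene that macrophages also express. Postn (4.45 to 4.77) and Lox (4.89 to 5.58) lay below. Of 5 measured B cell genes Cd79b (8.15 to 9.02) lay above, and Cd79a, Ebf1, Pax5 and Vpreb1 (4.40 to 6.37 over these genes) lay below. Those medians include probe sets without a gene symbol. By mean level among probe sets with 1 symbol, Col1a1, Col1a2 and Col3a1 ranked at 53.5%, 50.5% and 49%, near the middle. Fn1 ranked at 69.3% and Cd79b at 69.5%. Mast cell, megakaryocyte, monocyte and late neutrophil genes varied widely between arrays of a construct, and their values are given where they bear on a member.

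No member differed between constructs by the test used across all probe sets. With limma's moderated test and Benjamini-Hochberg adjustment over 23410 probe sets, 0 of 8 members passed the threshold of 0.05 in any of 7 comparisons, and the moderated F test over the 4 constructs also called 0 of 8 (smallest adjusted p = 1). Among all probe sets, the shares called were 0.0342% for the minimal fusion against MIG, 0% for CALM-AF10 against MIG and 0% for ΔOM-LZ against MIG. They were 0% for CALM-AF10 against ΔOM-LZ, 0.0171% for the minimal fusion against ΔOM-LZ and 0.00427% for the minimal fusion against CALM-AF10. The mean of the constructs with OM-LZ (CALM-AF10 and minimal fusion) against the mean of those without (MIG and ΔOM-LZ) gave 0.0128%, and the F test 0.00854%. Calls were thus rare in the whole data set, and a count of 0 among 8 genes was near the background.

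At an unadjusted p under 0.05 the members that stood out were Aff4, Mllt1 and Psip1. Aff4 and Mllt1 did so for the minimal fusion against MIG, 2 of 8 where 7.61% of all probe sets did. Mllt1 alone did for CALM-AF10 against MIG (5.26% of all probe sets), and Psip1 alone for ΔOM-LZ against MIG (3.96%) and for the minimal fusion against ΔOM-LZ (4.1%). Aff4 and Mllt1 again did for constructs with against without OM-LZ (6.95%). The count was 0 of 8 for CALM-AF10 against ΔOM-LZ (2.26%), for the minimal fusion against CALM-AF10 (1.8%) and for the F test (4.3%). These counts come from the unpaired model. Same-numbered arrays of CALM-AF10 and ΔOM-LZ deviated together, and a fit of those groups as pairs by replicate block put Psip1 alone of the members, and 14.2% of all probe sets, at an unadjusted p under 0.05, with 0 members called. A second limma setting, with trend and robust variance, also called 0 members in each comparison. At an unadjusted p under 0.05 it had 1 of 8 for the minimal fusion against MIG (6.97%). It had 1 for constructs with against without OM-LZ (6.36%) and 1 for the F test (3.65%). Its count was 0 of 8 for CALM-AF10 (4.62%) and ΔOM-LZ (3.6%) against MIG and for the minimal fusion against ΔOM-LZ (3.69%). Centring arrays on their median also gave 0 of 8 in those last comparisons (4.93%, 3.69% and 3.89%). Quantile normalization gave 1 of 8 in each of them (5.69%, 4.93% and 4.96%). Comparisons against MIG share the MIG arrays and are not independent of one another.

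Median differences over the 8 members were close to 0, as they were over all probe sets. The median log2 difference of the members was −0.06 for the minimal fusion against MIG, 0.05 for CALM-AF10 and −0.0035 for ΔOM-LZ, beside medians of 0.0045, 0.0037 and 0.0081 over all probe sets tested. In the first of these comparisons 4 members stood higher and 4 lower. The spread within constructs, as a pooled SD of log2 values, ran from 0.09 for Mllt1 to 0.55 for Mllt3, with a median of 0.18 over all genes. Mllt1 was thus among the steadiest 6.96% of genes and Mllt3 was above 95.9% of them.

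**Figure D1:**
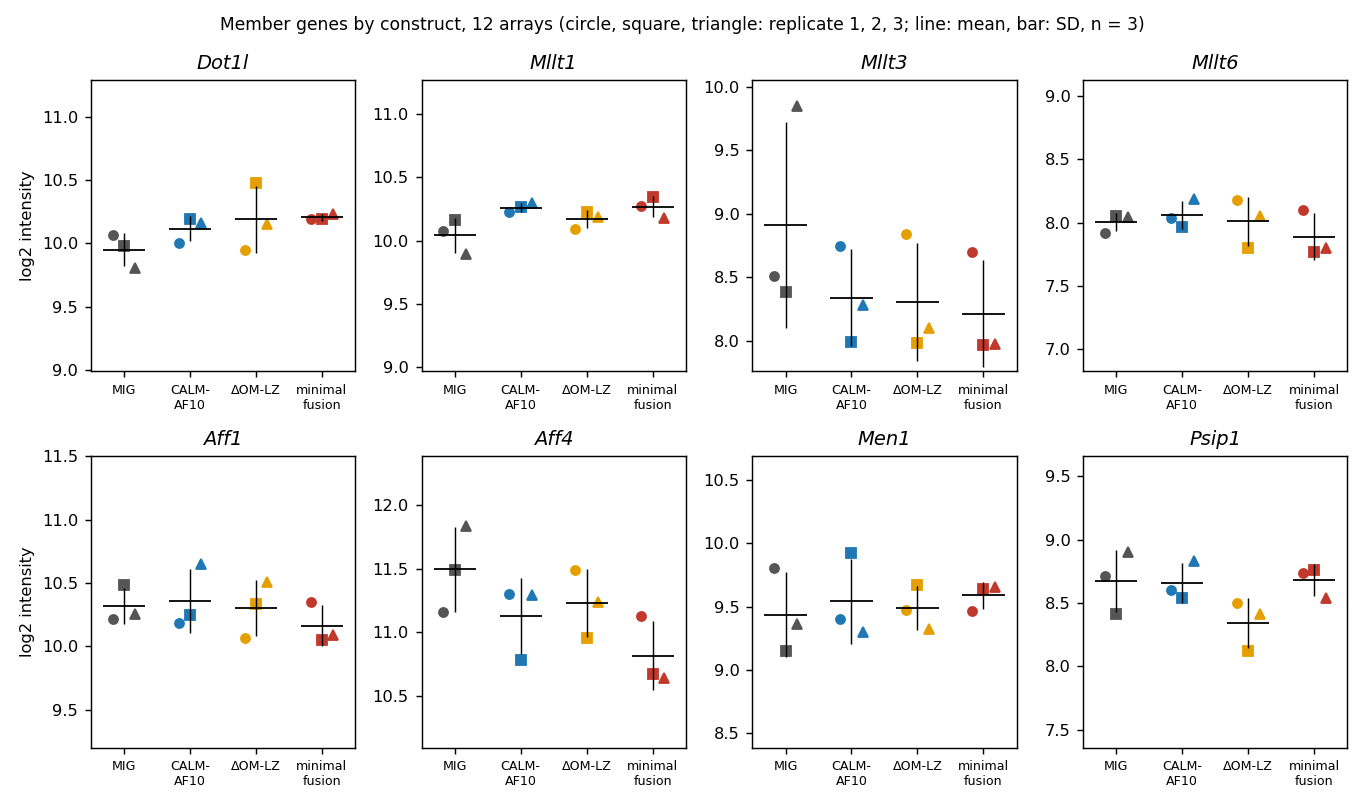
Log2 intensity (vertical axis, 2.3 log2 units in every panel) of the 8 member genes in the 4 constructs. Each symbol is 1 of 12 arrays (circle, square and triangle for replicate 1, 2 and 3), the line is the mean and the bar the SD of 3 arrays. Mllt3 and Aff4 spread most, with MIG replicate 3 highest for both, and Mllt1 spreads least.

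Dot1l, the methyltransferase itself, stood at log2 values of 10.06, 9.98 and 9.81 in MIG replicates 1, 2 and 3 and at 10.0005, 10.19 and 10.16 with CALM-AF10. With ΔOM-LZ it stood at 9.95, 10.47 and 10.15, and with the minimal fusion at 10.19, 10.19 and 10.23. Every minimal fusion array lay above every MIG array, while CALM-AF10 and ΔOM-LZ overlapped MIG. The minimal fusion was 0.25 higher than MIG on the log2 scale (SE 0.13, 95% interval −0.03 to 0.54, adjusted p = 0.695), a 1.19-fold difference. CALM-AF10 was 0.17 higher (adjusted p = 1) and ΔOM-LZ 0.24 higher (adjusted p = 0.999). The construct with OM-LZ removed was thus as far from MIG as the others, and the minimal fusion differed from it by 0.02 (95% interval −0.27 to 0.30). Without ΔOM-LZ replicate 2, the highest array of all, ΔOM-LZ stood 0.10 above MIG and the minimal fusion 0.16 above ΔOM-LZ.

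The AF10 family is measured here by Mllt6, which encodes AF17, a DOT1L partner built like AF10. Its log2 values were 7.92, 8.05 and 8.04 in MIG and 8.03, 7.96 and 8.18 with CALM-AF10. They were 8.18, 7.80 and 8.05 with ΔOM-LZ and 8.10, 7.77 and 7.80 with the minimal fusion. All groups overlapped, and the order of means (minimal fusion, MIG, ΔOM-LZ, CALM-AF10 from low to high) had no step larger than the SD within constructs. The widest difference, minimal fusion against CALM-AF10, was −0.17 (SE 0.13, 95% interval −0.45 to 0.10, adjusted p = 1). Mllt10, the mouse AF10 gene and no member, stood 0.12 lower than MIG with the minimal fusion, 0.16 lower with CALM-AF10 and 0.13 lower with ΔOM-LZ (adjusted p = 0.855, 1 and 0.999). The sources used here do not say whether its probe set also reads RNA of the constructs.

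Mllt1 and Mllt3 encode the paralogs ENL and AF9, YEATS-domain proteins that bind acetylated histones and recruit DOT1L or the AFF scaffolds. Mllt1 had log2 values of 10.07, 10.16 and 9.89 in MIG, 10.22, 10.26 and 10.29 with CALM-AF10, 10.09, 10.23 and 10.19 with ΔOM-LZ, and 10.28, 10.35 and 10.18 with the minimal fusion. CALM-AF10 and the minimal fusion each lay above MIG with no overlap, while ΔOM-LZ overlapped MIG. Against MIG, Mllt1 stood 0.22 higher with the minimal fusion (SE 0.09, 95% interval 0.02 to 0.43, adjusted p = 0.604), 0.22 higher with CALM-AF10 (95% interval 0.01 to 0.42, adjusted p = 0.916) and 0.13 higher with ΔOM-LZ (95% interval −0.08 to 0.33, adjusted p = 0.999). These are folds of 1.17, 1.16 and 1.09. Without MIG replicate 3, the lowest array, the differences were 0.15, 0.14 and 0.05. For constructs with against without OM-LZ the difference was 0.16 (95% interval 0.01 to 0.30, adjusted p = 0.663). CALM-AF10 against ΔOM-LZ, where OM-LZ is the named change, gave 0.09 (95% interval −0.12 to 0.30, adjusted p = 1), so a difference between those constructs was not detected.

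Mllt3 differed far more between arrays of a construct than its paralog did. Its log2 values were 8.51, 8.38 and 9.85 in MIG, 8.75, 7.99 and 8.28 with CALM-AF10, 8.84, 7.98 and 8.10 with ΔOM-LZ, and 8.70, 7.97 and 7.97 with the minimal fusion. MIG replicate 3 stood apart above the other 11 arrays, and in each fusion group replicate 1 was the highest. Against MIG it stood 0.70 lower with the minimal fusion (SE 0.39, 95% interval −1.56 to 0.16, adjusted p = 0.725), 0.57 lower with CALM-AF10 (adjusted p = 1) and 0.61 lower with ΔOM-LZ (adjusted p = 0.999), and the groups overlapped. Without MIG replicate 3 these differences shrank to −0.23, −0.11 and −0.14, so that 1 array supplied most of each. The step between MIG and CALM-AF10 was the only 1 in the order of means that exceeded the SD within constructs.

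Mast cell genes stood high on the 3 arrays with the highest Mllt3. A score for 6 mast cell markers (mean log2 value after centring each gene over the 12 arrays) was 2.23 in MIG replicate 3, 1.41 in ΔOM-LZ replicate 1 and 1.21 in CALM-AF10 replicate 1, the 3 arrays with the highest Mllt3. In the other 9 arrays it lay between −1.18 and 0.03, with Mllt3 between 7.97 and 8.70. Minimal fusion replicate 1, next by Mllt3 at 8.70, had a score of −0.63. MIG replicate 1, with Mllt3 at 8.51, had −0.46. By construct the score ran from −0.46 to 2.23 in MIG, −0.75 to 1.21 with CALM-AF10, −0.30 to 1.41 with ΔOM-LZ and −1.18 to −0.63 with the minimal fusion. All 6 markers (Cpa3, Ms4a2, Cma1, Tpsb2, Mcpt4 and Hdc) stood lower with the minimal fusion than in MIG, by a median of 1.51 on the log2 scale, and 0 passed by limma. None was at the floor of the arrays throughout: the dimmest, Mcpt4, ran from 4.65 to 9.71. The part of these cells in the Mllt3 values was not tested. In bulk RNA, fewer cells of a type and less RNA per cell cannot be told apart.

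Aff1 and Aff4 encode AF4 and AF5q31, scaffolds of the complexes that bring P-TEFb to paused polymerase. Aff1 had log2 values of 10.22, 10.49 and 10.25 in MIG, 10.18, 10.25 and 10.65 with CALM-AF10, 10.07, 10.34 and 10.51 with ΔOM-LZ, and 10.35, 10.05 and 10.09 with the minimal fusion. The groups overlapped in every comparison, and the minimal fusion stood 0.15 lower than MIG (SE 0.16, 95% interval −0.50 to 0.19, adjusted p = 0.858). The dimmer Aff1 probe set stood 0.34 lower in that comparison (SE 0.26, adjusted p = 0.808). With CALM-AF10 against MIG the probe sets differed in sign, at 0.04 on the brighter and −0.28 on the dimmer, each with an adjusted p of 1.

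Aff4 showed the smallest unadjusted p of any member in the comparison of the minimal fusion with MIG. Its log2 values were 11.16, 11.49 and 11.84 in MIG, 11.30, 10.78 and 11.30 with CALM-AF10, 11.49, 10.95 and 11.24 with ΔOM-LZ, and 11.13, 10.67 and 10.64 with the minimal fusion. The highest minimal fusion array lay just below the lowest MIG array, so these groups did not overlap, and the order of means ran from the minimal fusion through CALM-AF10 and ΔOM-LZ up to MIG. Against MIG the minimal fusion stood 0.68 lower (SE 0.22, 95% interval −1.16 to −0.20), a 1.60-fold difference, which ranked 444 of 23410 by p and did not pass (adjusted p = 0.516). CALM-AF10 stood 0.37 lower (adjusted p = 1) and ΔOM-LZ 0.27 lower (adjusted p = 0.999), and the minimal fusion stood 0.42 lower than ΔOM-LZ (95% interval −0.90 to 0.07, adjusted p = 0.999). For constructs with against without OM-LZ the difference was −0.39 (SE 0.15, adjusted p = 0.63). Without MIG replicate 3 the differences from MIG were −0.51 for the minimal fusion, −0.20 for CALM-AF10 and −0.10 for ΔOM-LZ. Without CALM-AF10 replicate 2 that fusion stood at −0.20, and without ΔOM-LZ replicate 2 that one at −0.13. The lowest adjusted p for Aff4 in any alternative was 0.273, without MIG replicate 1.

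Markers of other cell types stood lower beside Aff4 in the minimal fusion. Of 5 megakaryocyte markers 5 stood lower than in MIG (median −1.10), of 6 late neutrophil markers 6 did (median −0.63), and of 6 monocyte and macrophage markers 5 did (median −0.85), with 0 past the threshold by limma in each list. The megakaryocyte score was −0.20, 1.20 and 1.29 in MIG replicates 1, 2 and 3, and −0.49, −0.96 and −0.96 with the minimal fusion. It ran from −0.78 to 0.16 with CALM-AF10 and was 1.33, 0.11 and −0.55 with ΔOM-LZ. In MIG, CALM-AF10 and the minimal fusion the arrays had the same order by this score as by Aff4. Some were nearly level: CALM-AF10 replicates 1 and 3 by Aff4 (11.3006 and 11.2962), and minimal fusion replicates 2 and 3 by score. With ΔOM-LZ the order differed, replicate 3 being lowest by score and replicate 2 by Aff4. The late neutrophil score had another order than Aff4 in every construct. The monocyte and macrophage score had the same order as Aff4 only with ΔOM-LZ. Its arrays out of order in CALM-AF10 and the minimal fusion were nearly level by Aff4. MIG replicate 3, the highest by Aff4, was the lowest MIG array by late neutrophil score (−0.49) and by monocyte and macrophage score (−0.32). The part of these cell types in the Aff4 difference was not tested.

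Men1 and Psip1 encode menin and LEDGF, which together hold MLL on chromatin. Men1 had log2 values of 9.80, 9.15 and 9.36 in MIG, 9.40, 9.93 and 9.30 with CALM-AF10, 9.47, 9.67 and 9.32 with ΔOM-LZ, and 9.47, 9.64 and 9.66 with the minimal fusion. All groups overlapped and only 6.78% of its variance lay between constructs. The minimal fusion stood 0.15 above MIG (SE 0.19, 95% interval −0.28 to 0.58, adjusted p = 0.892). A score of 7 cell cycle markers was 0.38, −0.18 and −0.08 in MIG and −0.27, 0.34 and −0.45 with CALM-AF10. It was −0.35, 0.20 and −0.18 with ΔOM-LZ and 0.0006, 0.40 and 0.17 with the minimal fusion. Arrays had the same order by score as by Men1 in MIG and CALM-AF10, and not in the other constructs. The part of these markers in the Men1 values was not tested.

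Psip1 was the member in which ΔOM-LZ stood apart. Its log2 values were 8.71, 8.42 and 8.90 in MIG, 8.60, 8.54 and 8.83 with CALM-AF10, 8.50, 8.12 and 8.41 with ΔOM-LZ, and 8.74, 8.76 and 8.54 with the minimal fusion. The ΔOM-LZ arrays lay below all arrays of CALM-AF10 and of the minimal fusion and overlapped MIG through MIG replicate 2. Against ΔOM-LZ, Psip1 stood 0.34 higher with the minimal fusion (SE 0.15, 95% interval 0.01 to 0.66, adjusted p = 0.999) and 0.31 higher with CALM-AF10 (95% interval −0.01 to 0.64, adjusted p = 1). ΔOM-LZ stood 0.33 below MIG (95% interval −0.66 to −0.01, adjusted p = 0.999), whereas the minimal fusion and CALM-AF10 were within 0.02 of MIG. Without ΔOM-LZ replicate 2, its lowest array, ΔOM-LZ stood 0.22 below MIG, and the minimal fusion and CALM-AF10 stood 0.23 and 0.20 above ΔOM-LZ. Without MIG replicate 3 ΔOM-LZ also stood 0.22 below MIG. In a fit of CALM-AF10 and ΔOM-LZ as pairs by replicate block, Psip1 differed by 0.31 (SE 0.09, adjusted p = 0.275). The step from ΔOM-LZ to CALM-AF10, larger than the SD within constructs, was the only neighbouring pair in any member's order of means without overlap. Late neutrophil markers ran opposite to Psip1 in the comparisons with ΔOM-LZ. With ΔOM-LZ 6 of 6 stood higher than with MIG (median 0.62). Lower than with ΔOM-LZ were 6 of 6 with the minimal fusion (median −1.37) and 6 of 6 with CALM-AF10 (median −0.79). For the minimal fusion against MIG, however, 6 of 6 stood lower (median −0.63), while Psip1 differed by 0.0041. In each of these comparisons 0 of the markers passed the threshold by limma. Their score ran from −0.49 to 0.47 in MIG, −0.39 to 0.13 with CALM-AF10, 0.36 to 0.98 with ΔOM-LZ and −0.94 to −0.36 with the minimal fusion. Arrays had reversed orders by this score and by Psip1 in MIG and ΔOM-LZ, and not in the other constructs. Cd34 stood 0.54 lower with ΔOM-LZ than with MIG (adjusted p = 0.999). Their part in the Psip1 values was not tested.

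Across the comparisons, members whose groups did not overlap were 3 of 8 for the minimal fusion against MIG (Dot1l, Mllt1 and Aff4), where 12.1% of all probe sets did not overlap. They were 1 of 8 for CALM-AF10 against MIG (Mllt1, 9.31% of all), 0 for ΔOM-LZ against MIG (8.04%) and 1 for CALM-AF10 against ΔOM-LZ (Psip1, 6.76%). For the minimal fusion it was 1 against ΔOM-LZ (Psip1, 7.78%) and 0 against CALM-AF10 (5.38%). With 8 genes, 1 gene is 12.5% of the members, so these counts other than the first were near the background. The genes of the first count were not independent of one another. Over the arrays r was −0.77 for Dot1l with Aff4, −0.69 for Mllt1 with Aff4 and 0.68 for Dot1l with Mllt1. MIG replicate 3 was the lowest array for Dot1l and Mllt1 and the highest for Aff4. That count therefore cannot be set against the background share as 3 separate genes.

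**Figure D2:**
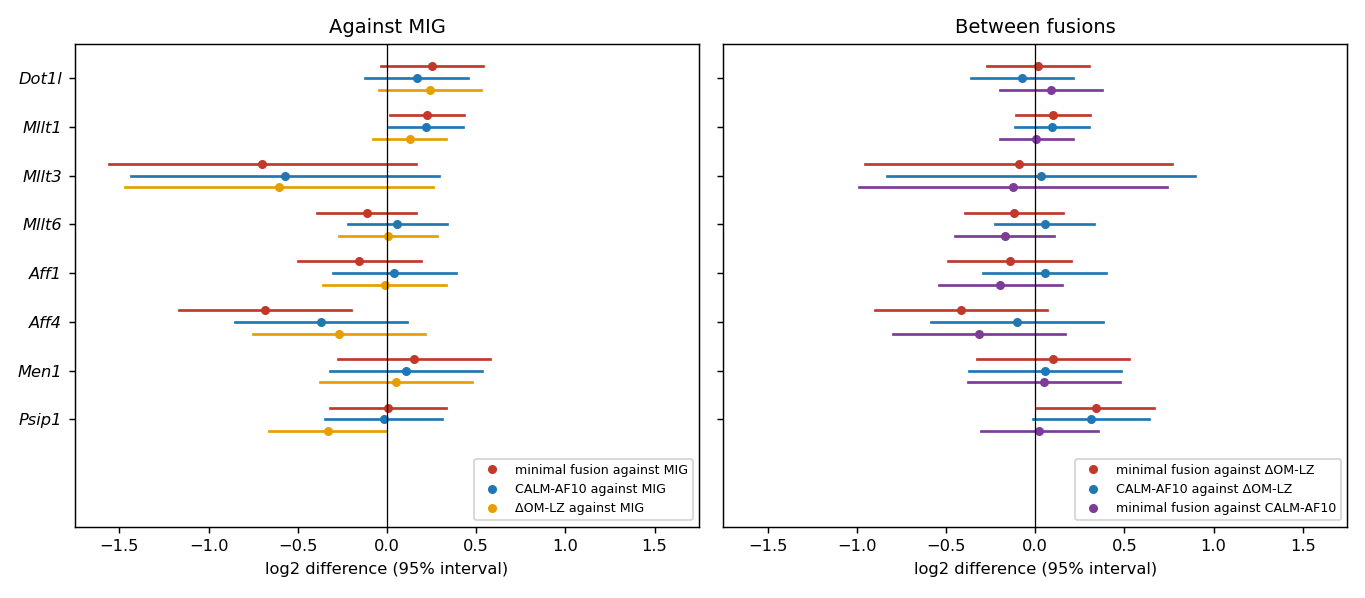
Log2 difference of each member (point) with its 95% interval (line) from limma, on a common horizontal scale, for each fusion against MIG at left and between fusions at right. The intervals of Mllt3 are the widest, and those of Mllt1 the narrowest. Intervals that leave out 0 belong to Mllt1 and Aff4 for the minimal fusion against MIG, Mllt1 for CALM-AF10 against MIG, and Psip1 for ΔOM-LZ against MIG and for the minimal fusion against ΔOM-LZ, and 0 of these passed after adjustment.

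Some members also moved with one another between arrays. Aff4 and Mllt3 stood high on the same arrays (Pearson r = 0.83, Spearman rho = 0.85 over 12 arrays), with permutation p-values, adjusted over 28 member pairs, of 0.0101 and 0.00747. Dot1l ran opposite to Aff4 (r = −0.77, rho = −0.93, adjusted permutation p = 0.0304 and 0.00224) and to Mllt3 (r = −0.80, rho = −0.87, adjusted permutation p = 0.0304 and 0.00728). Without the pair of arrays farthest from the median of the first-named gene, r was 0.67 for Mllt3 with Aff4, −0.82 for Dot1l with Aff4 and −0.72 for Dot1l with Mllt3. After subtracting each construct's mean, r was 0.85, −0.74 and −0.72. The relation therefore held among arrays of the same construct, and these arrays share the RNA and hybridisation from which every gene was read. The permutations treated all 12 arrays as exchangeable. Same-numbered arrays of CALM-AF10 and ΔOM-LZ deviated together, and replicate 1 of the minimal fusion deviated with both. Permutation p-values of the member pairs may therefore be too small.

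The other pairs were weaker or rested on few arrays. Mllt6 followed Aff4 (r = 0.72, adjusted permutation p = 0.0469, and rho = 0.65, adjusted permutation p = 0.103), at r = 0.63 without 2 arrays and 0.83 within constructs. Mllt1 ran opposite to its paralog Mllt3 (r = −0.77, adjusted permutation p = 0.0469, and rho = −0.56, adjusted permutation p = 0.154), but r was −0.30 without MIG replicate 3 and minimal fusion replicate 2, so that relation rested on those arrays. Mllt1 and Dot1l had r = 0.68 and rho = 0.66 (adjusted permutation p = 0.0648 and 0.103). Men1 and Aff4 had r = −0.69 and rho = −0.65 (adjusted permutation p = 0.0564 and 0.103). Aff1, Men1 and Psip1 passed with no other member.

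**Figure D3:**
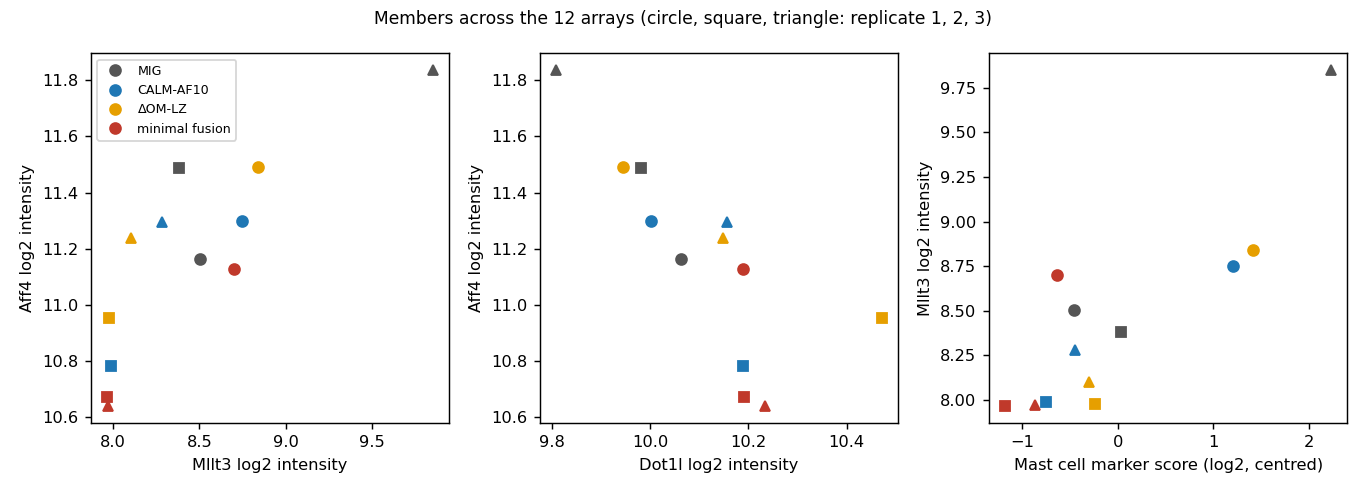
Log2 intensities of Aff4 against Mllt3 (left) and against Dot1l (centre), and of Mllt3 against the mast cell marker score (right, mean centred log2 value of 6 genes). Each symbol is 1 of 12 arrays, coloured by construct, with circle, square and triangle for replicate 1, 2 and 3. Aff4 goes up with Mllt3 and down with Dot1l, and MIG replicate 3 lies at the end of each trend. CALM-AF10 and ΔOM-LZ colours mix along both trends, while every MIG array lies above every minimal fusion array by Aff4 and below by Dot1l.

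The genes most like each member over the 12 arrays were taken from 9969 genes at or above the median level, by Pearson r as a description. Those nearest Aff4 were Rb1, the retinoblastoma protein gene (r = 0.98), Rab27b, a secretory granule GTPase gene (0.98), and Sgms1, a sphingomyelin synthase gene (0.98). Nearest Mllt3 were Serpinb6b (0.97), Arhgap18 (0.96) and Diaph1, a formin gene (0.96). For Dot1l they were Trub2 (0.94), Actl7b (0.93) and Ino80d (0.93), and for Mllt1 Dhx37 (0.92), Ipo13 (0.92) and Elac2 (0.92).

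The remaining members had other neighbours. Men1 was nearest Dhcr7, a cholesterol synthesis gene (r = 0.95), Gins2, a replication helicase subunit gene (0.95), and Pdia6, a protein folding gene (0.94). Psip1 was nearest Mettl14, an RNA methyltransferase subunit gene (0.90), Cd34 (0.89) and Cyren (0.88). Mllt6 was nearest Dctn4 (0.96), Slc3a2 (0.94) and Nlk (0.93), and Aff1 nearest Mfsd7a (0.93), Stambpl1 (0.92) and Lmo4 (0.92). These lists did not share a gene.

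Around the members, 7 lists covered 70 other genes of the machinery and its targets, and 67 were measured. For the minimal fusion against MIG 2 of 67 passed (0.0342% of all probe sets), both higher and both target genes. Of the 57 measured genes outside the target list 0 passed, and 7 had an unadjusted p under 0.05 (7.61% of all probe sets). For CALM-AF10 against MIG 0 of 67 passed, with 6 at an unadjusted p under 0.05 (5.26% of all probe sets). For ΔOM-LZ against MIG 0 of 67 passed, with 2 at an unadjusted p under 0.05 (3.96% of all probe sets). In each of the 7 comparisons the machinery outside the targets had 0 calls by limma. Between 2 and 7 of its 57 genes had an unadjusted p under 0.05, where 1.8% to 7.61% of all probe sets did.

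By list, the differences of the minimal fusion from MIG were small in the machinery. Of 7 measured DOT1L and AF10 partners 3 stood higher and 4 lower (median −0.03), with Mllt10 at −0.12 and Skp1, a ubiquitin ligase subunit gene, at 0.34 (adjusted p = 0.596). Of 12 elongation genes 6 stood higher and 6 lower (median 0.04), with Ell3, an elongation factor gene, at 0.20 (adjusted p = 0.649) and Eaf1, which encodes a partner of ELL proteins, at −0.32 (adjusted p = 0.555). Of 10 genes of the MLL/KMT2 core 7 stood higher (median 0.11), with the methyltransferase gene Kmt2d at 0.18 (adjusted p = 0.71) and Rbbp5, a shared subunit gene, at −0.24 (adjusted p = 0.85). Kmt2a, which encodes MLL itself, stood 0.13 higher (adjusted p = 0.79).

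Of 10 genes of H2B ubiquitination and the PAF1 complex, which prepare nucleosomes for DOT1L, 6 stood higher (median 0.04), with Paf1 at 0.34 (adjusted p = 0.755) and the ligase gene Rnf20 at −0.19 (adjusted p = 0.721). Of 8 genes related to menin and LEDGF 4 stood higher (median 0.02), with Cdca7l, which encodes a LEDGF-binding protein, at 0.35 (adjusted p = 0.615) and the cell cycle inhibitor gene Cdkn1b at −0.15 (adjusted p = 0.877). Of 10 other MLL fusion partners 8 stood lower (median −0.16), beside a median of 0.0045 over all probe sets. Gas7 was the lowest, at −1.10 (SE 0.21, 95% interval −1.56 to −0.63, adjusted p = 0.256), and Septin6, a cytoskeletal GTPase gene, the highest at 0.28 (adjusted p = 0.76). Gas7 groups did not overlap, and with ΔOM-LZ it stood 0.02 from MIG (95% interval −0.44 to 0.49).

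Target genes were where the calls lay. Of 10 measured targets of MLL and DOT1L 9 stood higher with the minimal fusion than with MIG (median 0.73). Hoxa9, a factor that keeps progenitors immature, rose by 1.39 on the log2 scale (SE 0.11, adjusted p = 0.00132) and Hoxa10 by 1.18 (SE 0.15, adjusted p = 0.0383). Against ΔOM-LZ, Hoxa9 rose by 1.44 (adjusted p = 0.000886) and Hoxa10 by 1.30 (adjusted p = 0.0282), and against CALM-AF10 Hoxa9 rose by 1.08 (adjusted p = 0.0161). The call of Hoxa9 against MIG held in 19 of 21 alternatives, but that of Hoxa10 in 6 of 21: it was lost when any 1 array other than CALM-AF10 replicate 2 was left out (adjusted p = 0.0644 to 0.22) and with the replicate block (adjusted p = 0.13). Hoxa10 against ΔOM-LZ held in 9 of 21 alternatives and Hoxa9 against CALM-AF10 in 11 of 21. No member had a call in the same comparisons. The single target below MIG was Jmjd1c, a histone demethylase family gene, at −0.33 (adjusted p = 0.59). With CALM-AF10 6 of 10 targets stood higher (median 0.05), and with ΔOM-LZ 0 of 10 (median −0.14), with 0 calls by limma in each. The choice of these targets rested on published HOXA results and on earlier results of these data, so their direction is not independent evidence.

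**Figure D4:**
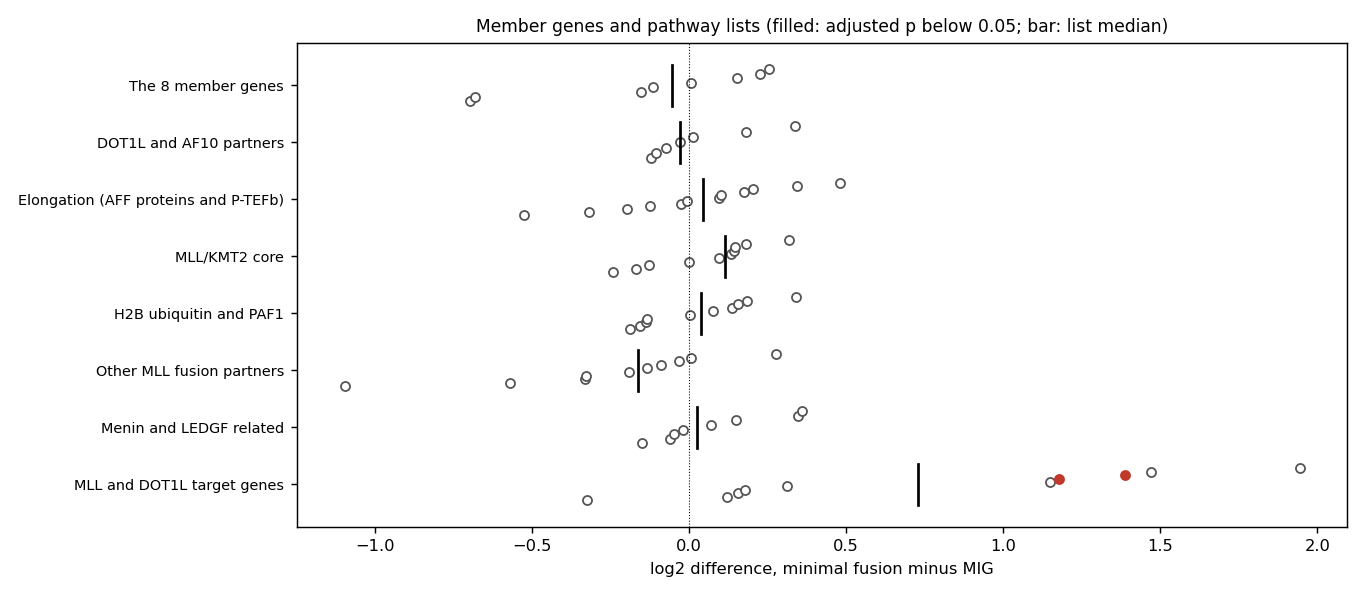
Log2 difference of the minimal fusion from MIG (horizontal axis) for the 8 members in the top row and for 7 lists of related genes below. Each circle is a gene, filled where its limma adjusted p was below 0.05, and the bar is the list's median. The filled circles are Hoxa9 and Hoxa10 among the targets, and all circles of the members and the machinery are open.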

How the data were processed

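Expression was measured on Affymetrix arrays, 1 per sample, after whole-transcript sense labelling. The deposited values are log2 intensities that the authors made in Expression Console, according to the submitters' processing notes. The sources used here give no version, summarization or normalization for it, and the common scale of the arrays was kept as deposited. The range of the values (2.88 to 14.27) showed the log2 scale.

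Of 35556 probe sets, 23410 had a gene symbol in the platform annotation and entered the fit, 21789 of them with 1 symbol. A linear model with a mean per construct (12 arrays, 8 residual degrees of freedom) was fitted in limma 3.58.1 under R 4.3.3. Two-sided p-values were adjusted by Benjamini-Hochberg over 23410 probe sets, with 0.05 as threshold. The code of the fit was checked on simulated arrays with independent noise, which lack the shared deviations of same-numbered arrays. Correlations used 100000 permutations of arrays, without regard to construct. All 12 arrays differed from one another (highest r between arrays 0.995).

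Same-numbered arrays deviated together in all 3 pairs for CALM-AF10 with ΔOM-LZ (r = 0.697 to 0.729, a pairing read from the arrays, since no label states one). No other pair of constructs did so in all 3. Replicate 1 of the minimal fusion had r = 0.717 with that of CALM-AF10 and 0.621 with that of ΔOM-LZ. Its replicates 2 and 3 had 0.388 and −0.196 with CALM-AF10, and 0.0661 and −0.0714 with ΔOM-LZ. The rule for naming genes took all members, Mllt10, the highest and lowest statistic of each list for the minimal fusion against MIG, any listed gene that passed, and the 3 nearest genes of each member. Kmt2a and the marker genes were named beside it. Members and lists were chosen with earlier results of these data known. Alternatives covered scaling, variance, groups in the fit, the replicate block, probe sets and leaving out arrays.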

Additional observations from a re-analysis of the deposited data

How the results depend on the processing

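The count of members called stayed at 0 of 8 under each of 21 alternatives for the 6 pairs of constructs, and under each of 19 for the constructs with against without OM-LZ and for the F test, which use all groups, and no single member passed in any of 1160 alternative values. The lowest adjusted p among them was 0.273 (Aff4, minimal fusion against MIG, without MIG replicate 1). In the fit with the replicate block the count was also 0, as it was in paired fits of the groups compared. In the paired fit of CALM-AF10 with ΔOM-LZ, Psip1 had an adjusted p of 0.275. Differences not called changed sign in 52 of the 1160 values, 0 of which had a main difference larger than its SE. The difference moved by more than 1 SE in 7 values: Mllt3 against MIG in each fusion without MIG replicate 3, Dot1l in the 3 comparisons with ΔOM-LZ without its replicate 2, and Aff1 for CALM-AF10 against MIG (−0.12) with the mean of its probe sets. The number of probe sets called for the minimal fusion against MIG, 8 in all, was 1 with the replicate block, 0 in limma with only those groups fitted (1742 at an unadjusted p under 0.05), 11 with quantile normalization, 20 over all probe sets of the file and between 1 and 9 when 1 array was left out (1 without MIG replicate 3, minimal fusion replicate 2 or minimal fusion replicate 3). The cause was not tested. Hoxa9 and Hoxa10 stayed higher with the minimal fusion than with MIG in all 21 alternatives (1.27 to 1.46 and 1.06 to 1.31 on the log2 scale), whether or not they passed. In the fit paired by replicate block for the minimal fusion with ΔOM-LZ, Gas7 passed (adjusted p = 0.0453), although those arrays were not shown to be pairs. Precision is set by the 3 arrays of a group, and Mllt3 has the widest intervals.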
